A study of Homo sapiens with 18 samples.

Results

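Panc327 and SUIT2, a pair of human pancreatic ductal adenocarcinoma cell lines, were set side by side for their RNA response to THZ1, a covalent inhibitor of the transcription kinase CDK7. The quantity followed here is the difference of responses, (Panc327 THZ1 minus Panc327 DMSO) minus (SUIT2 THZ1 minus SUIT2 DMSO) on the log2 scale, so that a positive value means a higher response in Panc327 and a negative value a lower one. It used 12 of the 18 libraries of the series, 3 in each of 4 groups: Panc327 with THZ1, Panc327 with DMSO (the solvent), SUIT2 with THZ1 and SUIT2 with DMSO. THZ1 was given at 100 nM and all cultures were taken after 6 h. All 26485 gene symbols of the deposited table were considered, and 13643 passed the filter on low counts and were tested. The labels name no genotype or further agent for either line and do not say whether the 3 libraries of a group came from separate cultures, so that p-values measure the spread between these libraries, which may be technical. Each line is 1 cell line, and no value here extends to pancreatic tumours in general.

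CDK7 is the kinase subunit of TFIIH, which phosphorylates the tail of RNA polymerase II when it leaves a promoter and also activates other cyclin-dependent kinases. At higher exposure THZ1 also binds CDK12 and CDK13, which act on the polymerase while it elongates. Loss of these activities is known to lower short-lived transcripts first, among them immediate early genes, transcription factors and MCL1. All values here are shares of a library, so fewer cells and less RNA per cell cannot be told apart. The series title names SIRT6, a chromatin deacetylase, and the integrated stress response, the pathway through which the factor ATF4 raises genes of amino acid supply.

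Totals over genes ran from 5626146 to 8631273 counts a library. Levels are given in CPM, the counts scaled to a common library total after TMM adjustment. The libraries of Panc327 with THZ1 stood apart in the share of reads that the counter set aside as aligned to several places, which was 52.8% ± 1.81 there, 13.6% ± 0.149 in Panc327 with DMSO, 12.9% ± 0.902 in SUIT2 with THZ1 and 13.2% ± 0.726 in SUIT2 with DMSO (SD, n = 3 each). Their scaling factors were 0.828 to 0.842, against 1.05 to 1.08 in the other 9 libraries. These values move with the Panc327 response, and their part in the results below was not tested. The 7 ductal epithelial markers (KRT7, KRT8, KRT18, KRT19, EPCAM, CDH1 and CLDN4) summed to 5710 to 5970 CPM in Panc327 with THZ1, 5160 to 5280 in Panc327 with DMSO, 8330 to 9130 in SUIT2 with THZ1 and 8010 to 8440 in SUIT2 with DMSO. These sums, and those of the other marker lists, are CPM of the library total without TMM adjustment. The ductal markers did not move together between the lines. KRT8 and KRT18 made up most of the ductal counts in SUIT2 and, with CLDN4, were higher there. KRT7, EPCAM and CDH1 were lower in SUIT2, KRT7 having 96 to 174 counts a library there and 5948 to 9258 in Panc327. Of the other lists, the 4 leukocyte markers summed to 18.2 to 23.6 CPM in Panc327 with THZ1, 10.4 to 12.2 in Panc327 with DMSO, 347 to 385 in SUIT2 with THZ1 and 347 to 375 in SUIT2 with DMSO, where LYZ and CD68 made up all of their counts. The 5 fibroblast markers summed to 55.7 to 64 CPM in Panc327 with THZ1 and 52.2 to 55.1 in Panc327 with DMSO, nearly all COL1A1, and to at most 1.1 CPM in a SUIT2 library. The 3 endothelial markers reached at most 15.9 CPM in Panc327, mainly VWF, and 4.48 CPM in SUIT2, mainly PECAM1. The acinar and endocrine lists reached at most 1.24 CPM. PTPRC had at most 1 count in a library, and PRSS1, PNLIP, INS, GCG, SST and DCN were at 0 in all 12 libraries.

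The response differed between the lines in most genes tested. Of 13643 genes, 8466 (62.1%) had a difference of responses at an adjusted p under 0.05 by edgeR's quasi-likelihood test, 3963 with a higher response in Panc327 (29.0%) and 4503 with a lower one (33.0%). Panc327 moved far more than SUIT2: 10231 genes (75.0%) changed in Panc327 and 1967 (14.4%) in SUIT2, and at a 2-fold change or more the counts were 1073 higher and 2633 lower in Panc327, against 20 higher and 62 lower in SUIT2. From the 10th to the 90th percentile over genes, log2 responses ran from -1.6 to 0.941 in Panc327 and from -0.367 to 0.259 in SUIT2. The split between higher and lower depends on the scaling, since each direction is relative to the rest of the library. Higher responses were 46.8% of the calls with TMM factors, 53.6% with RLE size factors and 27.9% with library size alone, and the median difference over all genes was -0.0203, 0.0992 and -0.329 under these scalings in the same order.

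**Figure D1:**
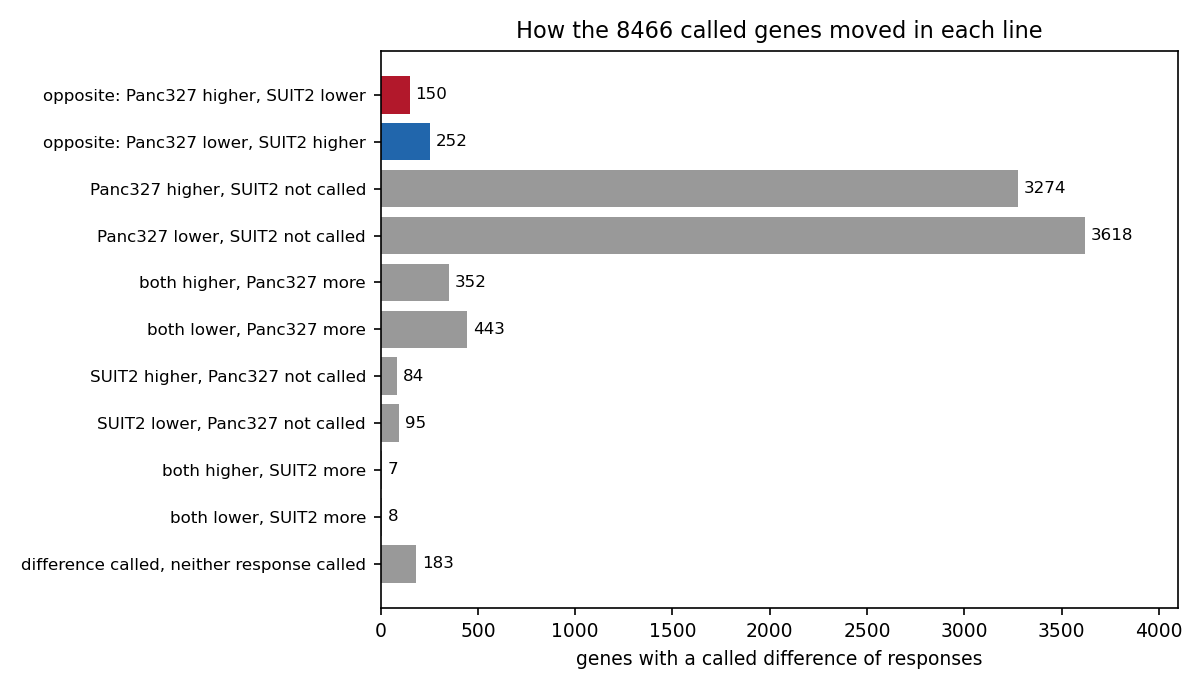
Genes with a called difference of responses, sorted by which line changed and in which direction; the horizontal axis counts genes. Changes called in Panc327 alone make up the longest bars, 3618 lower and 3274 higher, while 252 and 150 genes went opposite ways.

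Sorted by each line's own change, 3618 genes fell in Panc327 with no call in SUIT2 and 3274 rose in Panc327 with no call in SUIT2. A further 443 fell in both lines and 352 rose in both, each by more in Panc327. In the reverse sense, 95 genes fell and 84 rose with a call in SUIT2 alone, 7 rose and 8 fell in both lines but by more in SUIT2, and 183 had a called difference with no call in either line. A missing call in one line is not itself a difference, and all genes counted here had a called difference of responses. The genes that went opposite ways, with calls in both lines, were 402 (4.75% of the called differences and 2.95% of genes tested). Of these, 150 rose in Panc327 and fell in SUIT2 (1.10% of genes tested), and 252 fell in Panc327 and rose in SUIT2 (1.85%).

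**Figure D2:**
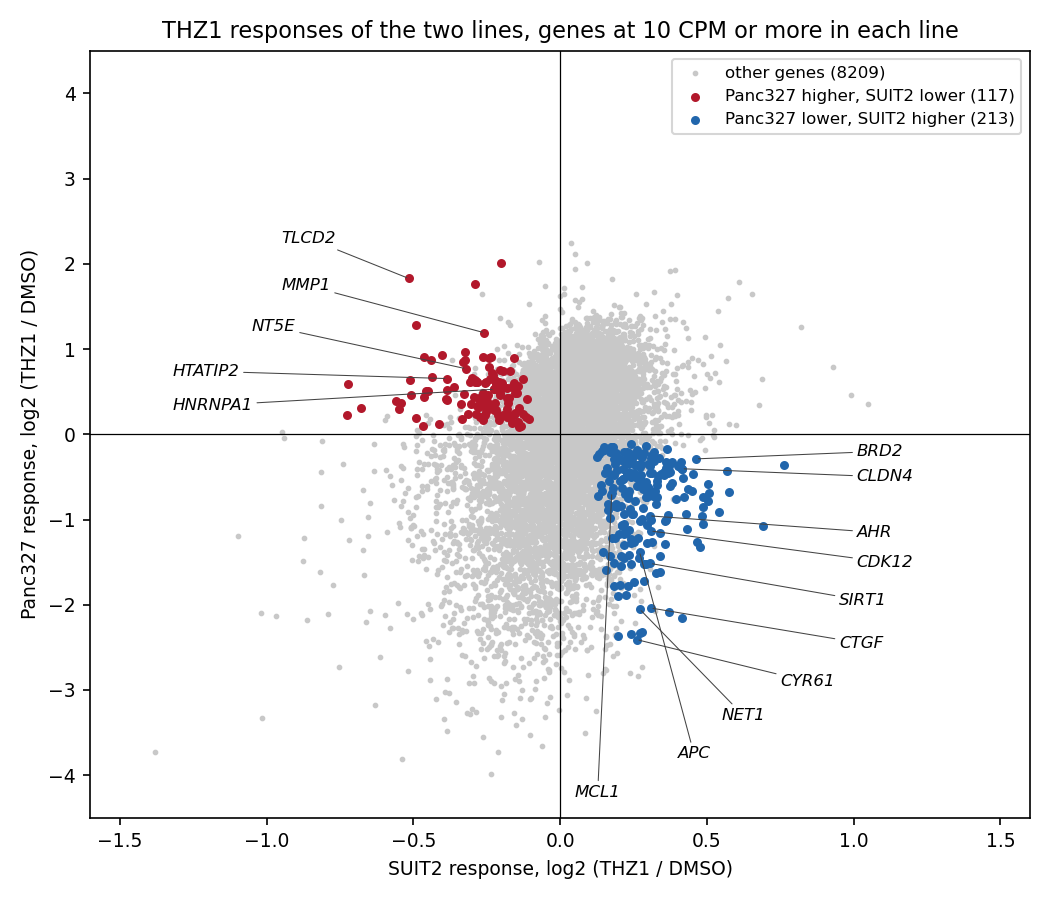
Log2 THZ1 response in Panc327 (vertical) against that in SUIT2 (horizontal), 1 point per gene, for the 8539 genes with at least 10 CPM in each line; 3 genes lie outside the axes. The points spread along the Panc327 axis and little along the SUIT2 axis, and red and blue points mark the 117 and 213 of these genes that went opposite ways.

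The opposite changes were mostly small in SUIT2. Only 16 genes rose by at least 1.5-fold in Panc327 and fell by at least 1.5-fold in SUIT2, and 14 did the reverse; among genes that reach 10 CPM on average in both lines these counts were 1 and 1. Under all 3 scalings 235 genes went opposite ways, 71 higher and 164 lower in Panc327. In the main analysis and in each of 19 other fits (other scalings, tools and filters, the replicate block, all 18 libraries and each library left out in turn), 78 genes did so, and 73 of them had at least 10 CPM in each line. Of the 78, 27 rose in Panc327 and fell in SUIT2, with median log2 responses of 0.659 in Panc327 and -0.292 in SUIT2. The other 51 fell in Panc327 and rose in SUIT2, with medians of -0.786 in Panc327 and 0.34 in SUIT2. Groups of 78 genes do not stand for 78 independent events, and this selection was made after the values were seen, so its medians describe the members.

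**Figure D3:**
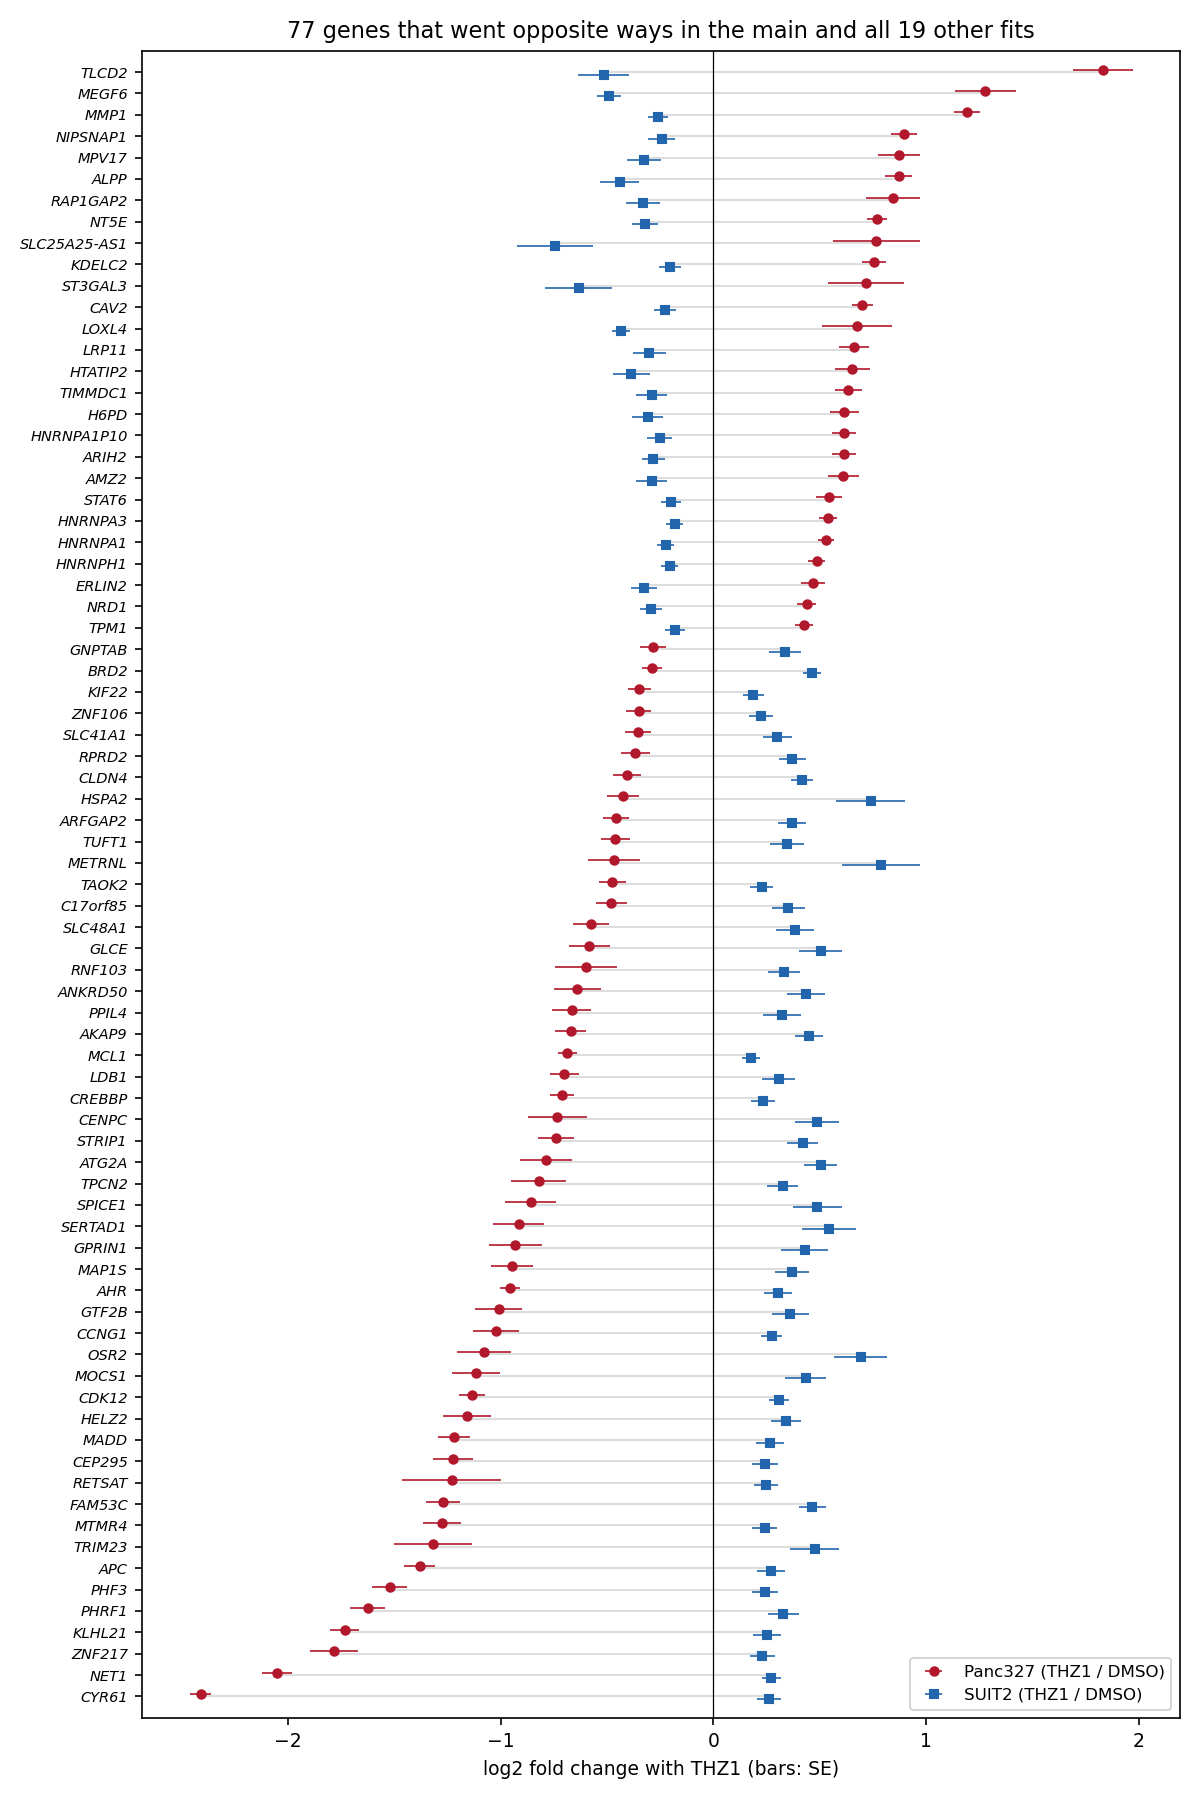
Log2 THZ1 responses with standard errors in Panc327 and in SUIT2 for 77 of the 78 genes that went opposite ways in every fit. SUIT2 responses lie between -0.744 and -0.18 for those that rose in Panc327 and between 0.176 and 0.788 for those that fell there.

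Regulators of transcription by RNA polymerase II were among the genes that fell in Panc327 and rose in SUIT2 in every fit. CDK12, the elongation kinase that THZ1 also binds, had 65, 67.2 and 61.5 CPM in Panc327 THZ1 libraries and 141, 139.8 and 145 CPM in Panc327 DMSO libraries. CDK12 was at 193, 197 and 199 CPM in SUIT2 THZ1 libraries and 164, 157 and 154 CPM in SUIT2 DMSO libraries. The 3 THZ1 libraries lay below the 3 DMSO libraries in Panc327 and above them in SUIT2, with no overlap in either line. Its responses were -1.13 in Panc327 and 0.31 in SUIT2, and the difference was -1.44 (SE 0.08, edgeR quasi-likelihood adjusted p = 2.61e-26). BRD2, a bromodomain protein that reads acetylated histones, had 202, 184 and 204 CPM in Panc327 THZ1 libraries and 229, 240.3 and 253 CPM in Panc327 DMSO libraries. BRD2 was at 478, 466 and 473 CPM in SUIT2 THZ1 libraries and 336, 349 and 341 CPM in SUIT2 DMSO libraries. The groups again did not overlap within either line, the SUIT2 change was the larger one (0.46, against -0.29 in Panc327), and the difference was -0.75 (SE 0.06, edgeR quasi-likelihood adjusted p = 4.63e-17). GTF2B, the general factor TFIIB that places the polymerase at the start site, had 18.7, 13.3 and 15.7 CPM in Panc327 THZ1 libraries and 34.2, 30.4 and 32.6 CPM in Panc327 DMSO libraries. GTF2B was at 36.9, 34.5 and 34.6 CPM in SUIT2 THZ1 libraries and 29, 25.8 and 27.8 CPM in SUIT2 DMSO libraries. THZ1 libraries were low in Panc327 and high in SUIT2 relative to DMSO. Its responses were -1.01 in Panc327 and 0.36 in SUIT2 and the difference was -1.37 (SE 0.14, edgeR quasi-likelihood adjusted p = 1.15e-13). CREBBP, a histone acetyltransferase and coactivator, had log2 responses of -0.71 in Panc327 and 0.23 in SUIT2. RPRD2, which binds the polymerase tail, had log2 responses of -0.37 in Panc327 and 0.37 in SUIT2. PHF3, which also binds that tail, had -1.52 in Panc327 and 0.24 in SUIT2. By the annotation used (GENCODE 29 on GRCh38), CDK12 lies on chromosome 17 from 39461511 to 39564907 (plus strand), BRD2 on chromosome 6 from 32968660 to 32981505 (plus strand) and GTF2B on chromosome 1 from 88852932 to 88891944 (minus strand). Of the genes named in this text, CDK12, BRD2, CREBBP, PHF3, CTGF, AMOTL2, MCL1, AHR, APC, KLHL21, ZNF217, MMP1, LOXL4, MEGF6, STAT6, TPM1, CAV2, HNRNPA1 and ZC3H4 are among those that overlap another annotated gene, and how the counting treated strand is not stated, so some of their reads may belong to the partner.

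Other genes of the drug's target pathway were mixed, and CDK7 fell in Panc327 with no call in SUIT2. CDK7 itself had 12.2, 15.5 and 10.4 CPM in Panc327 THZ1 libraries and 40.7, 40.9 and 42.4 CPM in Panc327 DMSO libraries. CDK7 was at 38.5, 43.6 and 43.4 CPM in SUIT2 THZ1 libraries and 39.6, 35 and 36.5 CPM in SUIT2 DMSO libraries. The Panc327 THZ1 libraries were the low group and the other 3 groups lay close together. Its responses were -1.71 in Panc327 and 0.17 in SUIT2 and the difference was -1.88 (SE 0.14, edgeR quasi-likelihood adjusted p = 1.67e-19). CDK13 had a difference of -0.41 (SE 0.09, edgeR quasi-likelihood adjusted p = 6.76e-05). CDK9, the kinase of the elongation factor P-TEFb, had responses of 0.07 in Panc327 and 0.19 in SUIT2, with no called difference (adjusted p = 0.399). HEXIM1, which holds P-TEFb inactive and is raised when P-TEFb is released, rose in both lines but by more in SUIT2. It had 106, 105 and 111 CPM in Panc327 THZ1 libraries and 83.1, 84 and 85.3 CPM in Panc327 DMSO libraries. HEXIM1 was at 126, 129.7 and 125 CPM in SUIT2 THZ1 libraries and 62.1, 63.7 and 58.3 CPM in SUIT2 DMSO libraries. Its responses were 0.35 in Panc327 and 1.05 in SUIT2 and the difference was -0.70 (SE 0.08, edgeR quasi-likelihood adjusted p = 2.31e-11). POLR2A, the largest polymerase subunit, rose in both lines, with responses of 0.79 in Panc327 and 0.93 in SUIT2; its difference of -0.14 (edgeR adjusted p = 0.0169) was lost under RLE and DESeq2 scaling and when any 1 Panc327 THZ1 library was left out. CCNT1, the cyclin of P-TEFb, fell in Panc327 and rose in SUIT2 (-0.42 in Panc327 and 0.19 in SUIT2), but its SUIT2 call was lost when SUIT2 THZ1 library 2 or 3, or SUIT2 DMSO library 1 or 2, was left out.

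By list, the same machinery was uneven. These lists and those further below were chosen with earlier results of these data known. Their counts stand beside 29.0% higher, 33.0% lower and 2.95% opposite over all genes. Of 33 Mediator subunits tested, 4 had a higher and 21 a lower response in Panc327, with a median difference of -0.58, against -0.02 over all genes. MED9 (-2.04), MED17 (-1.88) and MED1 (-1.57) differed most, and MED12, MED21 and MED23 went opposite ways, each losing that call with at least 1 library left out. Of 40 general transcription factors, 10 were higher and 20 lower, GTF2E1, a TFIIE subunit, having the lowest difference (-2.86). Of 38 genes of the Integrator complex, cleavage and termination, 9 were higher and 22 lower; ZC3H4, which ends transcription outside genes, had -4.05, CSTF1 -3.27 and INTS5 -2.97. RNA polymerase II subunits ran the other way, with 8 of 12 higher, 3 lower and a median of 0.57. POLR2J (0.98), POLR2F (0.93) and POLR2L (0.85) were among the 8. With library size alone 6 of the 12 subunits were higher and 4 lower. Their median was then 0.26, and that of all genes -0.33. The kinases and cyclins of transcription split 2 higher and 7 lower of 18, and P-TEFb partners and BET readers 6 higher and 11 lower of 25, with MEPCE, the cap enzyme of 7SK RNA, at -2.16. Opposite calls ran both ways among general transcription factors (5.0%) and Integrator, cleavage and termination genes (5.26%). GTF2B and RPRD2 fell in Panc327 and rose in SUIT2, while TAF15 and RPRD1A did the reverse. TAF15 lost its SUIT2 call when any 1 SUIT2 library was left out, and RPRD1A its Panc327 call with library size alone.

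Among targets of YAP and TEAD, the growth-control pair that switches on genes of adhesion, 5 of 25 went opposite ways, against 2.95% over all genes tested. CYR61 (CCN1), a secreted matrix protein, had 122, 128 and 146 CPM in Panc327 THZ1 libraries and 719, 679 and 703 CPM in Panc327 DMSO libraries. CYR61 was at 109.5, 109.9 and 116 CPM in SUIT2 THZ1 libraries and 85.5, 96.5 and 98 CPM in SUIT2 DMSO libraries. The Panc327 THZ1 libraries were far below those with DMSO, and the SUIT2 THZ1 libraries were all above those with DMSO. Its responses were -2.41 in Panc327 and 0.26 in SUIT2, the difference was -2.67 (SE 0.08, edgeR quasi-likelihood adjusted p = 2.88e-40), and it went opposite ways in every fit. CTGF (CCN2), a related matrix protein, had 15.1, 16.1 and 16.1 CPM in Panc327 THZ1 libraries and 68.3, 64.3 and 61.8 CPM in Panc327 DMSO libraries. CTGF was at 24.8, 26.6 and 30.6 CPM in SUIT2 THZ1 libraries and 21.1, 21.2 and 23.7 CPM in SUIT2 DMSO libraries. The direction was the same as for CYR61. Its responses were -2.04 in Panc327 and 0.31 in SUIT2 and the difference was -2.35 (SE 0.14, edgeR quasi-likelihood adjusted p = 2.86e-24). The SUIT2 call of CTGF was lost with DESeq2 (adjusted p = 0.0513) and when SUIT2 THZ1 library 3 (0.19), SUIT2 DMSO library 1 (0.0725) or SUIT2 DMSO library 2 (0.0663) was left out. AMOTL2, which binds YAP at cell junctions, had 27.4, 27.1 and 32.7 CPM in Panc327 THZ1 libraries and 148, 149 and 153 CPM in Panc327 DMSO libraries. AMOTL2 was at 114, 116 and 108 CPM in SUIT2 THZ1 libraries and 99.3, 97 and 98.6 CPM in SUIT2 DMSO libraries. Its responses were -2.37 in Panc327 and 0.20 in SUIT2 and the difference was -2.56 (SE 0.09, edgeR quasi-likelihood adjusted p = 2.1e-35); without SUIT2 THZ1 library 2 its SUIT2 adjusted p was 0.0571. AMOTL1, a relative of AMOTL2, had small responses of -0.15 in Panc327 and 0.18 in SUIT2 and lost the opposite call under RLE, with library size alone, with DESeq2 and in 7 of the 12 fits with 1 library left out (any Panc327 THZ1 library, SUIT2 THZ1 library 1 or 2, SUIT2 DMSO library 2 or 3). NT5E (CD73), the ectoenzyme that makes adenosine, was the one that went the other way. It had 327, 325 and 332 CPM in Panc327 THZ1 libraries and 190.2, 193 and 194 CPM in Panc327 DMSO libraries. NT5E was at 57.1, 56.8 and 59.3 CPM in SUIT2 THZ1 libraries and 75.3, 64.7 and 76.3 CPM in SUIT2 DMSO libraries. Its responses were 0.77 in Panc327 and -0.32 in SUIT2 and the difference was 1.09 (SE 0.08, edgeR quasi-likelihood adjusted p = 7.18e-20), and in each line its THZ1 and DMSO libraries did not overlap. Over the list, 10 genes (40.0%) had a higher and 12 (48.0%) a lower response in Panc327, against 29.0% and 33.0% over all genes. CYR61 lies on chromosome 1 from 85580761 to 85583962 (plus strand), CTGF on chromosome 6 from 131948176 to 131951373 (minus strand), and NT5E on chromosome 6 from 85449584 to 85495791 (plus strand).

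The 250 bases upstream of the CTGF start are shown because CTGF is known as a TEAD target and its promoter held the core letters of the TEAD site, GGAATG, 3 times (in capitals, either strand), starting at -169, -104 and -95 from the start. The sequence is RefSeq's on GRCh38.p14, chr6:131951373-131951622, minus strand, 5′ to 3′. Over all 10871 promoters matched to a tested gene, 9.6% held GGAATG on either strand, against 11.7% of 120 promoters of genes that rose in Panc327 and fell in SUIT2 and 5.29% of 208 of genes that did the reverse. This motif was chosen after values were seen, and a match is a description, not a site.
CTGF promoter: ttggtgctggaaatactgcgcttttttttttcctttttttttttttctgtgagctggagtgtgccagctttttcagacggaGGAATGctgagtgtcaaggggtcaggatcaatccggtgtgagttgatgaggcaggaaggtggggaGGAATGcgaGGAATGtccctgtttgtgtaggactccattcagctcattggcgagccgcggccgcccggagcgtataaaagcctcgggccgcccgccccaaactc

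Immediate early genes, whose transcripts appear and decay within minutes of a signal, included MCL1, a short-lived anti-apoptotic protein of the BCL2 family. MCL1 had 185, 183 and 184 CPM in Panc327 THZ1 libraries and 295, 301 and 292 CPM in Panc327 DMSO libraries. MCL1 was at 316, 327 and 334 CPM in SUIT2 THZ1 libraries and 298, 282 and 285 CPM in SUIT2 DMSO libraries. Its THZ1 libraries were all below DMSO in Panc327 and all above DMSO in SUIT2, and its responses were -0.69 in Panc327 and 0.18 in SUIT2, with a difference of -0.86 (SE 0.06, edgeR quasi-likelihood adjusted p = 5.64e-20) that kept opposite signs and calls in every fit. AHR, which is not on that list, is the ligand-activated aryl hydrocarbon receptor. It had 236, 228 and 257 CPM in Panc327 THZ1 libraries and 478, 466 and 456 CPM in Panc327 DMSO libraries. AHR was at 61.3, 64.9 and 57.6 CPM in SUIT2 THZ1 libraries and 50, 48.4 and 50.1 CPM in SUIT2 DMSO libraries. The difference of AHR was -1.26 (SE 0.08, edgeR quasi-likelihood adjusted p = 1.09e-22). KLF6 and ID1 also went opposite ways, by -0.29 in Panc327 and 0.24 in SUIT2 and by -0.53 in Panc327 and 0.22 in SUIT2, but KLF6 lost the Panc327 call under RLE, with DESeq2 and without Panc327 THZ1 library 1. ID1 lost the SUIT2 call with DESeq2 and without SUIT2 THZ1 library 1 or SUIT2 DMSO library 3. Of 36 immediate early genes, 8 (22.2%) had a higher and 21 (58.3%) a lower response in Panc327, against 29.0% and 33.0% over all genes. FOS (difference 1.97) and JUNB (1.02) rose in Panc327 by more than in SUIT2. JUNB was at 65.2, 53.3 and 67.8 CPM in SUIT2 THZ1 libraries and 41.4, 39.7 and 44.6 CPM in SUIT2 DMSO libraries. FOS was at 5.32, 3.78 and 4.19 CPM in SUIT2 THZ1 libraries and 3.01, 3.41 and 3.19 CPM in SUIT2 DMSO libraries. MYC fell in both lines (-2.08 in Panc327 and -0.19 in SUIT2), with a difference of -1.90 (SE 0.08, edgeR quasi-likelihood adjusted p = 1.17e-32). Of 25 genes of ERK feedback, which damp the MAP kinase cascade, 4 (16.0%) were higher and 13 (52.0%) lower. DUSP6, a phosphatase of ERK, had 1.8, 1.29 and 2.45 CPM in Panc327 THZ1 libraries and 19.3, 17.2 and 16.7 CPM in Panc327 DMSO libraries. DUSP6 was at 59.8, 58 and 66.5 CPM in SUIT2 THZ1 libraries and 55.7, 58.5 and 55.7 CPM in SUIT2 DMSO libraries. The difference of DUSP6 was -3.37 (SE 0.22, edgeR quasi-likelihood adjusted p = 4.96e-22). DUSP5 went opposite ways, with responses of -2.15 in Panc327 and 0.41 in SUIT2, its SUIT2 adjusted p being 0.0503 without SUIT2 DMSO library 3. MCL1 lies on chromosome 1 from 150574551 to 150579738 (minus strand), AHR on chromosome 7 from 16916359 to 17346152 (plus strand).

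**Figure D4:**
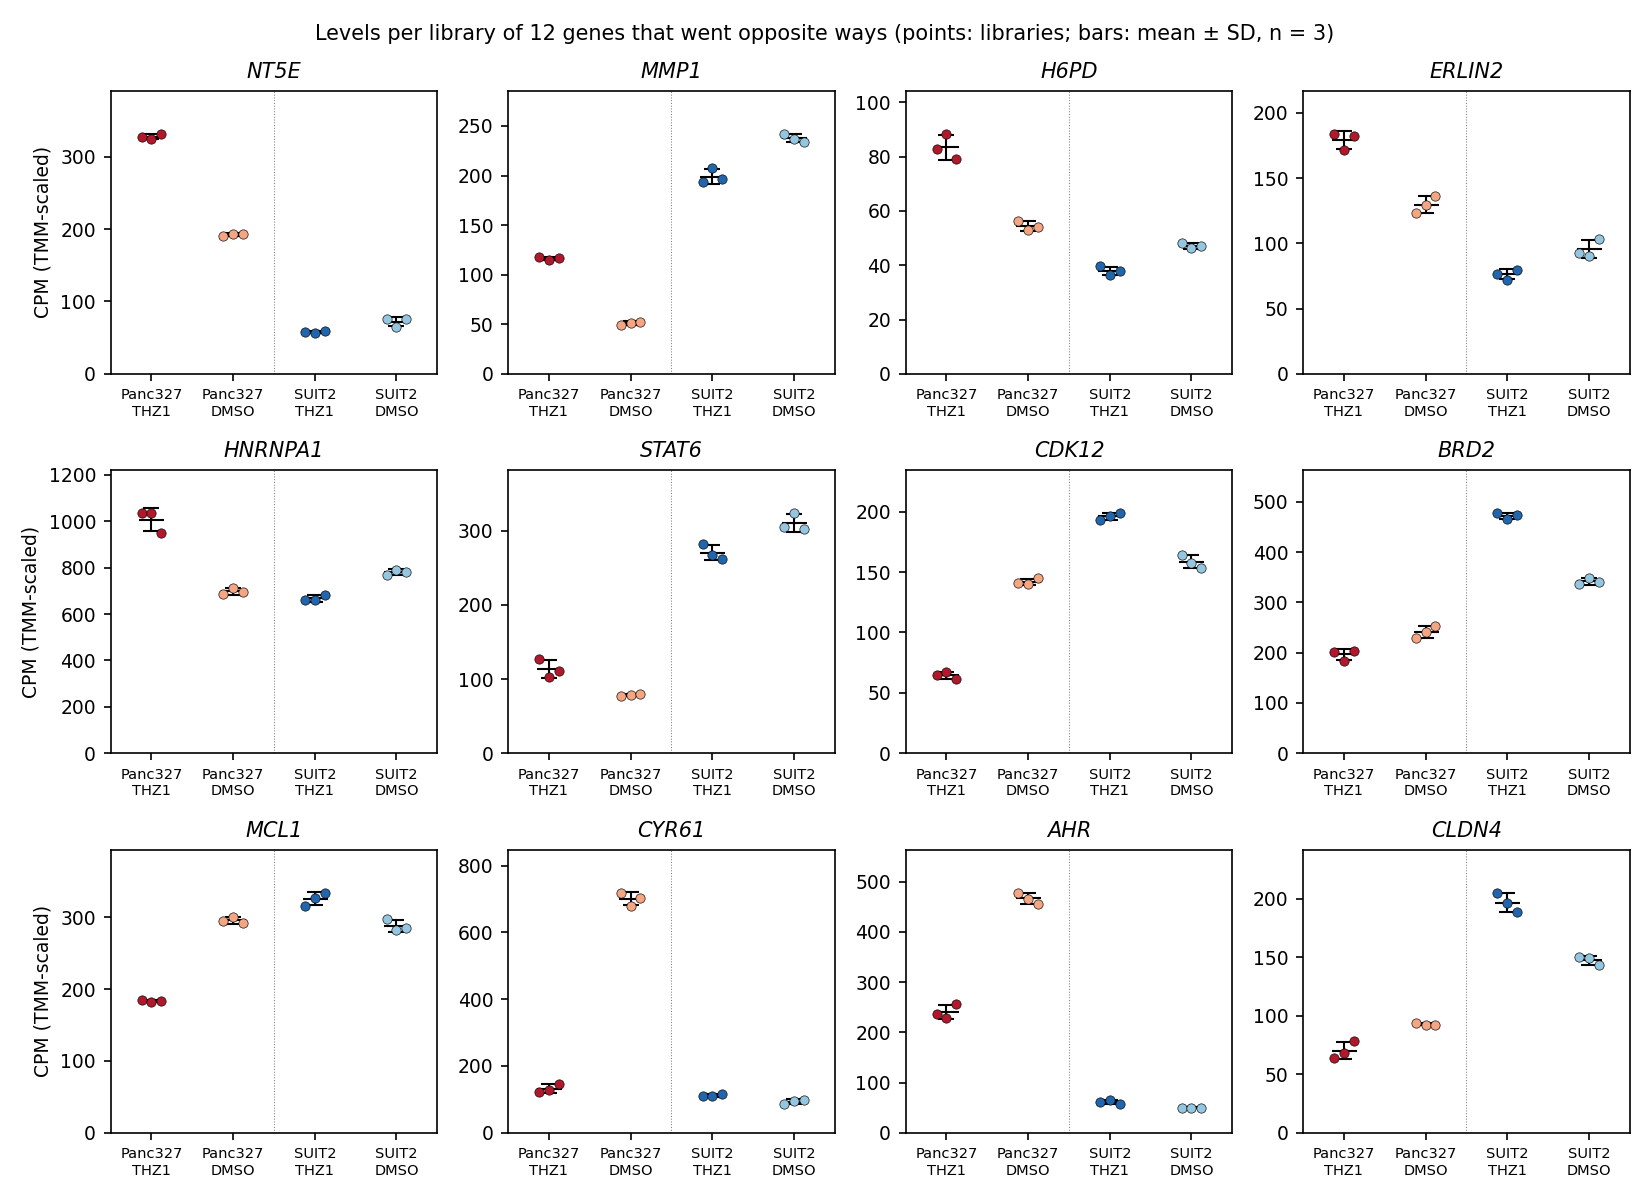
CPM in each of the 12 libraries for 12 genes that went opposite ways, with Panc327 THZ1, Panc327 DMSO, SUIT2 THZ1 and SUIT2 DMSO from left to right, points for libraries and bars for mean ± SD (n = 3). For CDK12 the Panc327 THZ1 libraries are below those with DMSO and the SUIT2 THZ1 libraries above those with DMSO.

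NET1, APC, KLHL21, ZNF217, CENPC, CEP295, SPICE1, KIF22 and CCNG1, chosen for description after their values were seen, also fell in Panc327 and rose in SUIT2 in every fit. NET1, an exchange factor for the GTPase RhoA, had 36.4, 31.8 and 29 CPM in Panc327 THZ1 libraries and 132, 137 and 136 CPM in Panc327 DMSO libraries. NET1 was at 357, 365 and 366 CPM in SUIT2 THZ1 libraries and 308, 280.4 and 313 CPM in SUIT2 DMSO libraries. Its responses were -2.05 in Panc327 and 0.27 in SUIT2 and the difference was -2.32 (SE 0.08, edgeR quasi-likelihood adjusted p = 3.06e-35). APC, the scaffold that sends beta-catenin to destruction, had 47, 38.7 and 44.4 CPM in Panc327 THZ1 libraries and 110.5, 112 and 117 CPM in Panc327 DMSO libraries. APC was at 71.9, 76.9 and 68.3 CPM in SUIT2 THZ1 libraries and 65.8, 54.7 and 59.2 CPM in SUIT2 DMSO libraries. Its responses were -1.38 in Panc327 and 0.27 in SUIT2 and the difference was -1.65 (SE 0.10, edgeR quasi-likelihood adjusted p = 1.03e-23). In both genes the THZ1 and DMSO libraries were apart within each line. KLHL21, an adaptor of a CUL3 ubiquitin ligase used in division, had responses of -1.73 in Panc327 and 0.25 in SUIT2 and a difference of -1.99 (SE 0.09, edgeR quasi-likelihood adjusted p = 5.36e-29). ZNF217, a zinc-finger factor often amplified in carcinoma, had responses of -1.78 in Panc327 and 0.23 in SUIT2 and a difference of -2.01 (SE 0.13, edgeR quasi-likelihood adjusted p = 1.09e-22). CENPC, which builds the kinetochore on the centromere, had 8.82, 10.3 and 17.4 CPM in Panc327 THZ1 libraries and 18.7, 20.8 and 20.6 CPM in Panc327 DMSO libraries. CENPC was at 27.8, 29.5 and 29.2 CPM in SUIT2 THZ1 libraries and 19.3, 20.2 and 22 CPM in SUIT2 DMSO libraries. The difference of CENPC was -1.22 (SE 0.17, edgeR quasi-likelihood adjusted p = 6.2e-09). CEP295 and SPICE1, both centriole proteins, had differences of -1.47 and -1.35, and KIF22, a chromosome-arm motor, had a small one of -0.54. CCNG1 (cyclin G1), a p53 target, had 14.4, 14.2 and 14.3 CPM in Panc327 THZ1 libraries and 28.5, 29.6 and 29 CPM in Panc327 DMSO libraries. CCNG1 was at 173, 186 and 188 CPM in SUIT2 THZ1 libraries and 157, 140.4 and 155 CPM in SUIT2 DMSO libraries. It was low with THZ1 in Panc327 and high with THZ1 in SUIT2 relative to DMSO, with responses of -1.02 in Panc327 and 0.27 in SUIT2 and a difference of -1.29 (SE 0.12, edgeR quasi-likelihood adjusted p = 2.8e-15). Of 28 p53 targets, 2 (7.14%) were higher and 20 (71.4%) lower, against 29.0% and 33.0% over all genes. Of 46 mitotic genes, 5 (10.9%) had a higher and 37 (80.4%) a lower response in Panc327, AURKA (-2.67) and TTK (-2.68) among the lowest. In SUIT2 1 of the 46 rose and 12 fell, AURKA among the 12, against 920 and 1047 of all 13643 genes tested. NEK2 alone fell in Panc327 and rose in SUIT2, and without SUIT2 THZ1 library 2 its SUIT2 edgeR adjusted p was 0.0907. NCAPD2 did the reverse, but lost the opposite call with library size alone, with no filter and without SUIT2 DMSO library 3. Of 50 DNA replication genes, 9 had a higher and 34 a lower response in Panc327. In SUIT2 2 of the 50 rose and 7 fell, against the same 920 and 1047 of all 13643.

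Among the largest opposite changes in this direction by the size of both responses were those of moderately expressed genes. OSR2, a zinc-finger factor of limb and palate development, had 10.3, 11.2 and 13.1 CPM in Panc327 THZ1 libraries and 24.5, 25.6 and 22.5 CPM in Panc327 DMSO libraries. OSR2 was at 15, 17.8 and 15.4 CPM in SUIT2 THZ1 libraries and 8.9, 10.5 and 10.3 CPM in SUIT2 DMSO libraries. SERTAD1, a partner of CDK4 and E2F, had 11.9, 13.5 and 14.3 CPM in Panc327 THZ1 libraries and 25.6, 25.9 and 23.1 CPM in Panc327 DMSO libraries. SERTAD1 was at 14.3, 13.1 and 14.9 CPM in SUIT2 THZ1 libraries and 9.65, 10.5 and 9.12 CPM in SUIT2 DMSO libraries. In both genes the THZ1 libraries were below the DMSO libraries in Panc327 and above them in SUIT2, with differences of -1.77 (SE 0.18) and -1.46 (SE 0.18). ATG2A, which moves lipid to the forming autophagosome, had responses of -0.79 in Panc327 and 0.50 in SUIT2. CLDN4, a tight-junction claudin and one of the ductal markers, had 64.3, 68.5 and 78.3 CPM in Panc327 THZ1 libraries and 94.2, 92 and 92.5 CPM in Panc327 DMSO libraries. CLDN4 was at 205, 197 and 188 CPM in SUIT2 THZ1 libraries and 150.2, 149 and 143 CPM in SUIT2 DMSO libraries. Its responses were similar in size with opposite signs (-0.40 in Panc327 and 0.42 in SUIT2), and the difference was -0.82 (SE 0.08, edgeR quasi-likelihood adjusted p = 7.42e-14).

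Of the 27 genes that rose in Panc327 and fell in SUIT2 in every fit, those described here were chosen after their values were seen. MMP1, the interstitial collagenase, had 118, 115 and 116 CPM in Panc327 THZ1 libraries and 48.8, 51.4 and 52.7 CPM in Panc327 DMSO libraries. MMP1 was at 193, 208 and 196 CPM in SUIT2 THZ1 libraries and 242, 237 and 234 CPM in SUIT2 DMSO libraries. All Panc327 THZ1 libraries were above those with DMSO and all SUIT2 THZ1 libraries below those with DMSO. Its responses were 1.19 in Panc327 and -0.26 in SUIT2 and the difference was 1.45 (SE 0.08, edgeR quasi-likelihood adjusted p = 1.92e-26). LOXL4, an enzyme that cross-links collagen, had 9.18, 13.7 and 8.38 CPM in Panc327 THZ1 libraries and 4.93, 7.32 and 7.11 CPM in Panc327 DMSO libraries. LOXL4 was at 621, 591 and 579 CPM in SUIT2 THZ1 libraries and 788, 818 and 817 CPM in SUIT2 DMSO libraries. The difference of LOXL4 was 1.11 (SE 0.17, edgeR quasi-likelihood adjusted p = 4.31e-08). MEGF6, a secreted protein with EGF repeats, had 18.2, 18.9 and 15.7 CPM in Panc327 THZ1 libraries and 7.79, 6.76 and 7.22 CPM in Panc327 DMSO libraries. MEGF6 was at 144, 131 and 123 CPM in SUIT2 THZ1 libraries and 177, 201 and 183 CPM in SUIT2 DMSO libraries. The difference of MEGF6 was 1.77 (SE 0.15, edgeR quasi-likelihood adjusted p = 1.75e-16). TLCD2, a plasma-membrane lipid regulator, had 19.6, 21 and 24.1 CPM in Panc327 THZ1 libraries and 5.62, 6.32 and 6.21 CPM in Panc327 DMSO libraries. TLCD2 was at 13.2, 11.3 and 11.2 CPM in SUIT2 THZ1 libraries and 16.4, 16.7 and 18.1 CPM in SUIT2 DMSO libraries. It had the largest difference of the 27, 2.35 (SE 0.19, edgeR quasi-likelihood adjusted p = 2.86e-18). In LOXL4, MEGF6 and TLCD2 the THZ1 and DMSO libraries did not overlap within either line. Among cytoskeletal and membrane genes, TPM1 (tropomyosin) had responses of 0.43 in Panc327 and -0.18 in SUIT2 and CAV2 (caveolin-2) of 0.70 in Panc327 and -0.23 in SUIT2. Of endoplasmic reticulum and mitochondrial genes, H6PD, which makes NADPH in the reticulum lumen, had responses of 0.61 in Panc327 and -0.31 in SUIT2, MPV17, an inner-membrane channel, of 0.87 in Panc327 and -0.33 in SUIT2, and TIMMDC1, an assembly factor of respiratory complex I, of 0.63 in Panc327 and -0.29 in SUIT2. STAT6, the transcription factor of interleukin-4 signalling, had 127, 103 and 111 CPM in Panc327 THZ1 libraries and 77.5, 78.2 and 80 CPM in Panc327 DMSO libraries. STAT6 was at 281, 267 and 262 CPM in SUIT2 THZ1 libraries and 305, 323 and 302 CPM in SUIT2 DMSO libraries. The difference of STAT6 was 0.74 (SE 0.08, edgeR quasi-likelihood adjusted p = 2.36e-13).

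Heterogeneous nuclear ribonucleoproteins (hnRNPs) bind nascent RNA and govern splicing, and HNRNPA1, HNRNPH1 and HNRNPA3 went in this direction in every fit. HNRNPA1 had 1035, 1034 and 949 CPM in Panc327 THZ1 libraries and 686, 713 and 693 CPM in Panc327 DMSO libraries. HNRNPA1 was at 659.7, 659 and 684 CPM in SUIT2 THZ1 libraries and 767, 791 and 782 CPM in SUIT2 DMSO libraries. It was high with THZ1 in Panc327 and low with THZ1 in SUIT2. Its responses were 0.53 in Panc327 and -0.22 in SUIT2 and the difference was 0.75 (SE 0.05, edgeR quasi-likelihood adjusted p = 5.38e-20). HNRNPH1 had responses of 0.49 in Panc327 and -0.20 in SUIT2 and HNRNPA3 of 0.54 in Panc327 and -0.18 in SUIT2. The pseudogene HNRNPA1P10 moved like HNRNPA1 (0.61 in Panc327 and -0.25 in SUIT2), but its sequence is nearly that of HNRNPA1 and reads may be shared between them. Over 42 SR proteins, CLK kinases and hnRNPs, 20 had a higher and 14 a lower response in Panc327, with a median difference of 0.08 that was -0.23 with library size alone, so no direction of the list holds under every scaling. The lower members included the kinases CLK4 (-1.62) and CLK2 (-1.30) and SRSF3 (-1.10). HNRNPH3 and SRSF7 went opposite ways too, but lost the opposite call with library size alone, and SRSF7 also with no filter. HNRNPA1 lies on chromosome 12 from 54280193 to 54287088 (plus strand) and MMP1 on chromosome 11 from 102789920 to 102798160 (minus strand).

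Promoters of the genes that went opposite ways were set beside those of all genes tested, which include them. CCAAT, the box bound by NF-Y, stood on either strand in 42.3% of 208 promoters of genes that fell in Panc327 and rose in SUIT2, in 29.2% of 120 promoters of genes that rose in Panc327 and fell in SUIT2, and in 34.9% of all 10871. Among all genes with a called difference, CCAAT was in 37.6% of 3761 promoters of those lower in Panc327 and 34.3% of 3222 of those higher. The E-box CACGTG, searched the same way, was in 9.13% of the 208, 9.17% of the 120 and 8.78% of all promoters. The cyclic AMP response element TGACGTCA was in 2.88% of the 208, 3.33% of the 120 and 2.78% of all. TATAAA was in 4.81% of the 208, 3.33% of the 120 and 5.41% of all. The AP-1 site and the amino acid response element were searched too, with shares of 3.85% and 0% in the 208, 5.83% and 0% in the 120, and 4.14% and 0.386% in all promoters. No test was made of these shares. CCNG1, MTMR4 (a lipid phosphatase of endosomes) and ARFGAP2 (a regulator of Golgi vesicle coats) each held 4 CCAAT boxes, and their promoters are shown with the boxes (CCAAT, or ATTGG where the box is on the other strand) in capitals, 5′ to 3′, from RefSeq on GRCh38.p14. CCNG1 is chr5:163437321-163437570 on the plus strand, MTMR4 chr17:58517881-58518130 and ARFGAP2 chr11:47176880-47177129, both on the minus strand.
CCNG1 promoter: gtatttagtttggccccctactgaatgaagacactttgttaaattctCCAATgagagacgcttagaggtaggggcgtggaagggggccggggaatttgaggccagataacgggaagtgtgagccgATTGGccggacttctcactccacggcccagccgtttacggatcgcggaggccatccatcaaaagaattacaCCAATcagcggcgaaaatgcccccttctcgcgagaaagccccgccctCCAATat
MTMR4 promoter: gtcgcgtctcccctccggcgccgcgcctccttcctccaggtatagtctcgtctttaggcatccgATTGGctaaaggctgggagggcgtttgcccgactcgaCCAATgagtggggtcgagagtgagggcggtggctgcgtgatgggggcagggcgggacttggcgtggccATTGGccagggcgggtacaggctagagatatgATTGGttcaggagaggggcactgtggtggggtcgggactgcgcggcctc
ARFGAP2 promoter: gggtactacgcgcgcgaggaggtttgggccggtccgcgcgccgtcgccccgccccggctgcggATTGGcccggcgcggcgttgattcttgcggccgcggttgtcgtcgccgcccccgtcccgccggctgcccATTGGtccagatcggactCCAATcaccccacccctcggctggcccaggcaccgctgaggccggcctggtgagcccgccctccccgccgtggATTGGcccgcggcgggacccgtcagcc

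The genes that went opposite ways were somewhat longer at the median than all genes tested. The median exonic length was 5956 bases for the 150 that rose in Panc327 and 6362 bases for the 252 that fell there, against 5033 bases over all genes tested, with no test made. The median gene span was 36.6 kb for the 150 that rose in Panc327 and 33.8 kb for the 252 that fell there, against 31.5 kb over all genes tested, and the median number of exon blocks was 13 and 13, against 11. Their highest group mean had medians of 105 and 56.4 CPM, against 38.6 CPM over all genes; a gene had to be called in both lines to be counted here, which takes enough counts in each. MTMR4 had responses of -1.27 in Panc327 and 0.24 in SUIT2 with 20, 22.3 and 19.2 CPM in Panc327 THZ1 libraries and 48, 47.8 and 52.8 CPM in Panc327 DMSO libraries. MTMR4 was at 97, 97.6 and 96.7 CPM in SUIT2 THZ1 libraries and 82.1, 79.8 and 84.4 CPM in SUIT2 DMSO libraries. ARFGAP2 had responses of -0.46 in Panc327 and 0.37 in SUIT2, in the same directions. Both genes changed in every fit.

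Sirtuins, deacetylases to which SIRT6 of the series title belongs, split evenly. SIRT6 had 6.3, 6.01 and 6.75 CPM in Panc327 THZ1 libraries and 9.74, 8.87 and 10.9 CPM in Panc327 DMSO libraries. SIRT6 was at 21.1, 16.4 and 16.6 CPM in SUIT2 THZ1 libraries and 15.4, 15.3 and 20.1 CPM in SUIT2 DMSO libraries. It fell in Panc327 with no call in SUIT2 (-0.63 in Panc327 and 0.09 in SUIT2), and its difference was -0.72 (SE 0.22, edgeR quasi-likelihood adjusted p = 0.00285). SIRT1, the nuclear deacetylase of p53, had 11.5, 10.5 and 10.6 CPM in Panc327 THZ1 libraries and 29.8, 32.3 and 31.7 CPM in Panc327 DMSO libraries. SIRT1 was at 37.2, 39.9 and 36.7 CPM in SUIT2 THZ1 libraries and 31.7, 27 and 32.8 CPM in SUIT2 DMSO libraries. It went opposite ways, with responses of -1.52 in Panc327 and 0.31 in SUIT2 and a difference of -1.82 (SE 0.15, edgeR quasi-likelihood adjusted p = 6e-18); without SUIT2 DMSO library 2 its SUIT2 adjusted p was 0.0868. SIRT5 went opposite ways in the other sense, with responses of 0.23 in Panc327 and -0.73 in SUIT2, but its Panc327 call was lost with library size alone, with no filter and without Panc327 DMSO library 1 or 2. SIRT2 had a difference of 0.73 and SIRT7 of -0.53. Of 6 sirtuins tested, 3 had a higher and 3 a lower response in Panc327.

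In the integrated stress response, ATF4 fell in both lines by nearly the same amount, -0.40 in Panc327 and -0.38 in SUIT2, with no called difference (-0.02, adjusted p = 0.824); with library size alone the difference was called. DDIT3 (CHOP), an ATF4 target tied to cell death, fell in both lines (-2.10 in Panc327 and -0.34 in SUIT2), with a difference of -1.77 (SE 0.27, edgeR quasi-likelihood adjusted p = 4.95e-08). SESN2, a stress sensor that restrains mTORC1, had 3.06, 3.44 and 4.7 CPM in Panc327 THZ1 libraries and 19.7, 17.1 and 20.5 CPM in Panc327 DMSO libraries. SESN2 was at 16.2, 16.9 and 14.8 CPM in SUIT2 THZ1 libraries and 16.5, 13.3 and 15.5 CPM in SUIT2 DMSO libraries. It fell in Panc327 with no call in SUIT2, and the difference was -2.44 (SE 0.22, edgeR quasi-likelihood adjusted p = 6.66e-16). ASNS, asparagine synthetase, had 113, 129.5 and 123 CPM in Panc327 THZ1 libraries and 62.6, 62.6 and 60.8 CPM in Panc327 DMSO libraries. ASNS was at 33.1, 36.5 and 39.8 CPM in SUIT2 THZ1 libraries and 30, 33.5 and 32.8 CPM in SUIT2 DMSO libraries. It rose in Panc327 with no call in SUIT2, and the difference was 0.79 (SE 0.10, edgeR quasi-likelihood adjusted p = 6.34e-10). ATF3 and CHAC1 had no called difference (adjusted p = 0.116 and 0.443). Of 46 genes of the list, 18 (39.1%) were higher and 16 (34.8%) lower, against 29.0% and 33.0% over all genes. The median was 0.14, and -0.17 with library size alone, and none went opposite ways. SLC7A11 (1.08), ALDH1L2 (0.86) and PSAT1 (0.81) were higher, SLC38A2 (-1.93) and DDIT4 (-1.49) lower. Of 29 genes of the unfolded protein response, 18 (62.1%) were higher and 7 (24.1%) lower. With library size alone 13 of the 29 were higher and 10 lower, and the median of 0.44 was 0.13. Protein disulphide isomerases PDIA3 (0.97) and PDIA6 (0.96) were on one side and the factor XBP1 (-2.95) on the other. Of 23 heat shock genes, 10 (43.5%) were higher and 3 (13.0%) lower, and the median of 0.28 was -0.03 with library size alone.

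Ribosomal proteins, respiratory chain subunits and zinc fingers had medians far from that of all genes. Of 81 cytoplasmic ribosomal proteins, 80 had a higher response in Panc327 (median difference 0.94, 0.62 with library size alone), and of 76 nuclear subunits of the respiratory chain 73 did (0.85 and 0.53). RPL12 had a difference of 1.25 and RPLP1 of 1.17, COX7B, a subunit of cytochrome c oxidase, of 1.22. Of 54 ribosome biogenesis genes, 6 were higher and 42 lower, GNL3 (-2.49) and RRS1 (-2.47) lowest. Of 440 numbered zinc fingers, the largest class of transcription factors, 317 were lower and 18 higher, with a median of -1.34, and 10 went opposite ways (2.27%, near the 2.95% over all genes). Of 30 genes of epithelial identity, 2 were higher and 18 lower; GATA6, a factor of the classical pancreatic subtype, had 0.18, 0 and 0.409 CPM in Panc327 THZ1 libraries and 1.6, 0.998 and 1.35 CPM in Panc327 DMSO libraries. GATA6 was at 43.3, 39 and 41.6 CPM in SUIT2 THZ1 libraries and 37.4, 39 and 42.4 CPM in SUIT2 DMSO libraries. The Panc327 level of GATA6 was under 2 CPM in every library. The difference of GATA6 was -2.69 (SE 0.65, edgeR quasi-likelihood adjusted p = 0.000225). Of 21 mesenchymal genes, 11 were higher and 2 lower. Opposite calls, against 2.95% over all genes, were 1 of 30 epithelial genes (SOX4), 1 of 54 biogenesis genes (RIOK2), 2 of 21 mesenchymal genes (FN1 and MMP1), and none of the 81 ribosomal proteins or 76 respiratory subunits. SOX4 lost its SUIT2 call with DESeq2 and without SUIT2 THZ1 library 2 or 3 or SUIT2 DMSO library 2 or 3. RIOK2 lost its SUIT2 call with DESeq2 and without SUIT2 THZ1 library 1 or 2 or SUIT2 DMSO library 1 or 3.

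**Figure D5:**
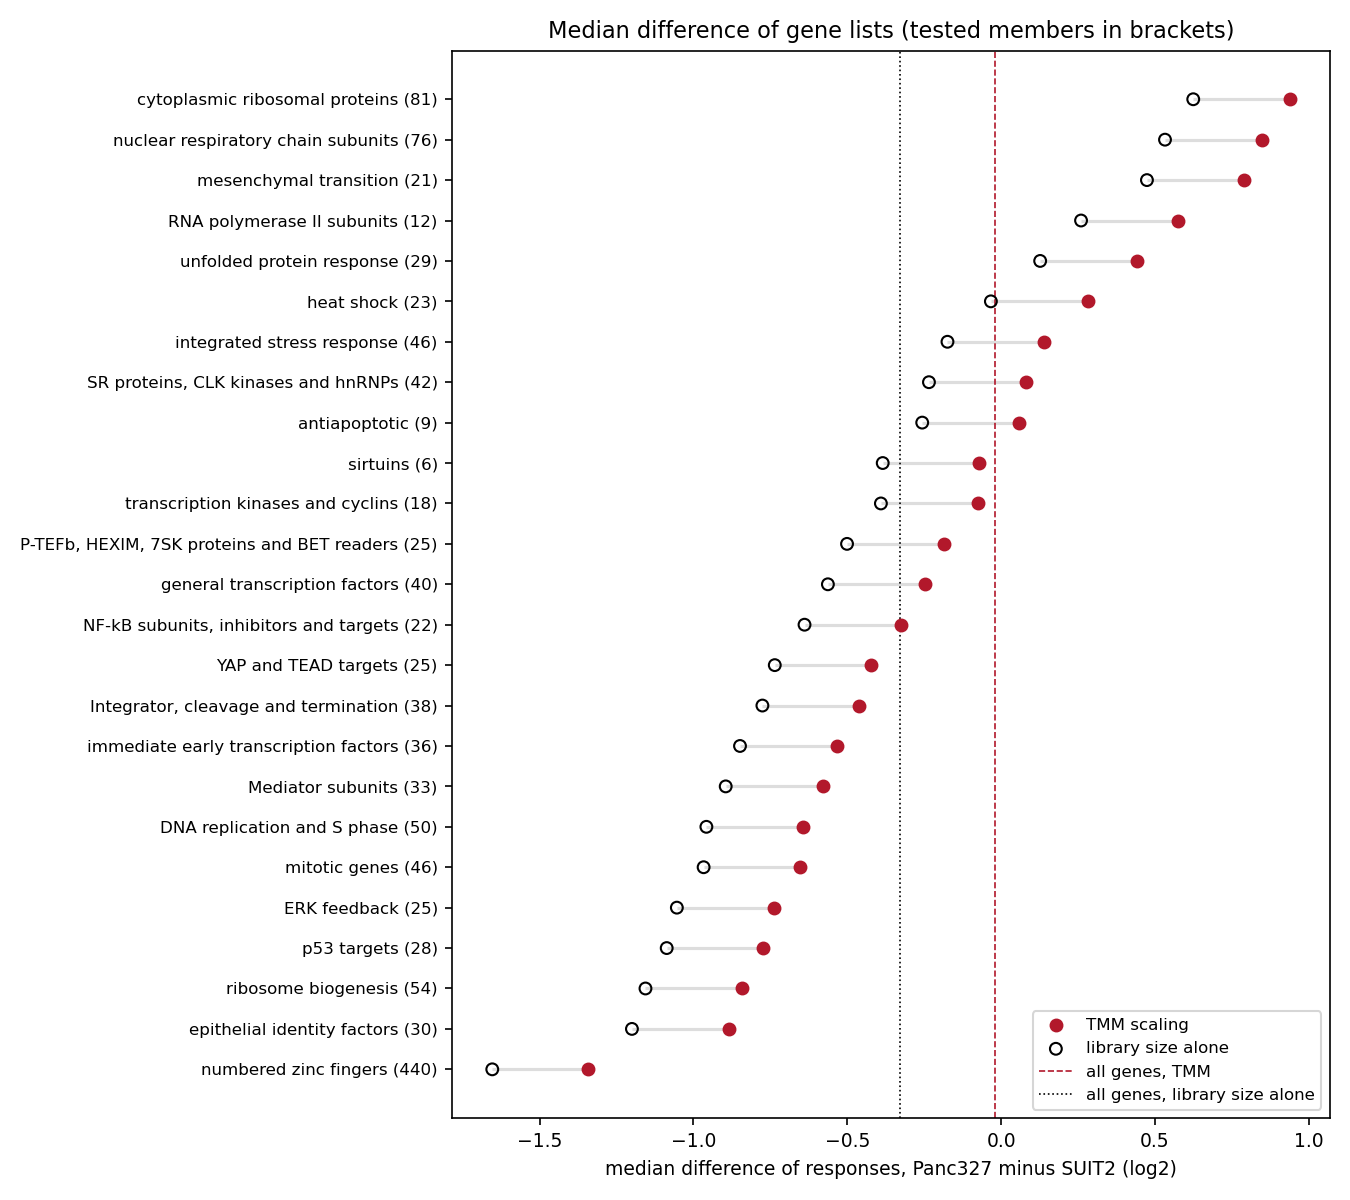
Median difference of responses (log2, horizontal) for each list with TMM scaling (filled) and library size alone (open), with the medians of all genes as vertical lines. Ribosomal proteins (0.94 and 0.62) and respiratory subunits (0.85 and 0.53) lie to the right of all genes and numbered zinc fingers (-1.34 and -1.65) to the left.

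Among genes with at least 10 CPM in each line, ZC3H4 had the most negative difference, -4.05 (SE 0.16, edgeR quasi-likelihood adjusted p = 9.47e-34). The gene had 4.68, 3.65 and 3.48 CPM in Panc327 THZ1 libraries and 99, 98.1 and 100 CPM in Panc327 DMSO libraries. ZC3H4 was at 37.9, 32.9 and 34.1 CPM in SUIT2 THZ1 libraries and 54.5, 53.2 and 49.7 CPM in SUIT2 DMSO libraries. It fell in both lines and by far more in Panc327. DKK1, a secreted inhibitor of WNT signalling, had 10.4, 11.6 and 15.3 CPM in Panc327 THZ1 libraries and 159, 155 and 158 CPM in Panc327 DMSO libraries. DKK1 was at 277, 274 and 279 CPM in SUIT2 THZ1 libraries and 279.6, 286 and 299 CPM in SUIT2 DMSO libraries. The difference of DKK1 was -3.60 (SE 0.10, edgeR quasi-likelihood adjusted p = 7.36e-42). TNFRSF1A, the main receptor of tumour necrosis factor, had 9.18, 6.44 and 10.6 CPM in Panc327 THZ1 libraries and 106, 93.7 and 101 CPM in Panc327 DMSO libraries. TNFRSF1A was at 154, 149 and 149.7 CPM in SUIT2 THZ1 libraries and 143, 147 and 139 CPM in SUIT2 DMSO libraries. The difference of TNFRSF1A was -3.59 (SE 0.12, edgeR quasi-likelihood adjusted p = 2.42e-37). In both genes the Panc327 THZ1 libraries were the low group by far. On the other side, LENG8 had 483, 463 and 521 CPM in Panc327 THZ1 libraries and 121, 107 and 111 CPM in Panc327 DMSO libraries. LENG8 was at 73.2, 62.8 and 73 CPM in SUIT2 THZ1 libraries and 64.6, 75.1 and 62.8 CPM in SUIT2 DMSO libraries. RAD18, a ubiquitin ligase of DNA damage tolerance, had 148, 149.9 and 167 CPM in Panc327 THZ1 libraries and 36.2, 39.5 and 39.6 CPM in Panc327 DMSO libraries. RAD18 was at 31.9, 36.1 and 32.2 CPM in SUIT2 THZ1 libraries and 33.8, 31.7 and 28.4 CPM in SUIT2 DMSO libraries. For both genes the Panc327 THZ1 libraries were high and the SUIT2 groups overlapped, with differences of 2.06 (SE 0.09, edgeR quasi-likelihood adjusted p = 1.55e-29) and 1.92 (SE 0.11, edgeR quasi-likelihood adjusted p = 4.25e-25). The ribosomal RNA genes RNA45S5 and RNA28S5 had the largest positive differences in this set, 5.76 and 4.71. RNA45S5 had 4229, 3972 and 3974 CPM in Panc327 THZ1 libraries and 24.5, 21.6 and 17.7 CPM in Panc327 DMSO libraries. RNA45S5 was at 14.6, 16.5 and 13 CPM in SUIT2 THZ1 libraries and 4.89, 3.41 and 4.11 CPM in SUIT2 DMSO libraries. RNA28S5 had 172, 215 and 425 counts in SUIT2 with THZ1 and 337, 204 and 157 with DMSO. These are repeated genes whose RNA poly(A) selection mostly removes. The share of reads aligned to several places rose with them in Panc327 (52.8% with THZ1, 13.6% with DMSO). In SUIT2 that share was 12.9% with THZ1 and 13.2% with DMSO. Its part in the result was not tested.

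Most of the largest fitted differences rest on a line in which the gene was hardly counted. Of the 20 largest, 10 per direction, 16 had a mean under 10 CPM in both groups of 1 line. In 13 of the 20, a group had 3 counts or fewer over its libraries. The 4 genes below, all with opposite calls, also rest on such a line. SNCG, a synuclein, had 419, 336 and 361 counts in Panc327 with THZ1 and 313, 298 and 306 with DMSO, against 0, 0 and 0 in SUIT2 with THZ1 and 0, 3 and 4 with DMSO. COL4A2, a basement membrane collagen, had 2, 2 and 1 counts in SUIT2 with THZ1 and 4, 1 and 17 with DMSO, and its difference, 2.97, was not called without SUIT2 DMSO library 3 (1.51, adjusted p = 0.146). FN1, fibronectin, had 4, 2 and 2 counts in SUIT2 with THZ1 and 4, 5 and 17 with DMSO. In both genes the SUIT2 DMSO library 3 was the high one. Without it the SUIT2 adjusted p was 0.751 for COL4A2 and 0.546 for FN1, and FN1 also lost its SUIT2 call with limma voom and without SUIT2 THZ1 library 2 or 3. COL4A2 lost its SUIT2 call with limma voom and without SUIT2 THZ1 library 3 too. WNK4, a kinase that governs ion transport, had 7, 5 and 6 counts in Panc327 with THZ1 and 0, 3 and 4 with DMSO. The fitted sizes of these 4 genes depend on the prior count and give no fold.

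Genes that moved more in SUIT2 were few. SSU72, a phosphatase of the polymerase tail, had 94.9, 102 and 95.3 CPM in Panc327 THZ1 libraries and 102, 103 and 103 CPM in Panc327 DMSO libraries. SSU72 was at 70.1, 66.7 and 71.5 CPM in SUIT2 THZ1 libraries and 117, 127 and 122 CPM in SUIT2 DMSO libraries. It fell in SUIT2 with no call in Panc327, where THZ1 and DMSO libraries lay close together (-0.08 in Panc327 and -0.81 in SUIT2), and the difference was 0.73 (SE 0.08, edgeR quasi-likelihood adjusted p = 4.18e-12). MMACHC, which handles vitamin B12, had 9.36, 9.88 and 10.2 CPM in Panc327 THZ1 libraries and 9.51, 10.2 and 10.6 CPM in Panc327 DMSO libraries. MMACHC was at 6.82, 7.69 and 8.13 CPM in SUIT2 THZ1 libraries and 14.8, 13.1 and 15.4 CPM in SUIT2 DMSO libraries. It fell in SUIT2 with no call in Panc327, and the difference was 0.90 (SE 0.21, edgeR quasi-likelihood adjusted p = 0.000133). C21orf58 had responses of 0.02 in Panc327 and -0.95 in SUIT2 and a difference of 0.97. CCDC134 went opposite ways with the larger change in SUIT2 (-0.36 in Panc327 and 0.76 in SUIT2), though its Panc327 call was lost under RLE, with DESeq2 and without Panc327 THZ1 library 1, 2 or 3 or Panc327 DMSO library 3.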

How the data were processed

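Poly(A) RNA of the cultures was sequenced after TruSeq preparation, per the labels' protocols, and the authors deposited 1 table of raw counts per gene symbol, made from hg38 alignments. The submitters' processing notes name HTSeq (0.6.1), TopHat2 (2.1.0) and bcl2fastq (1.8.4). How strand and annotation were set for the counting is not stated in these sources. AP-1 (TGANTCA) and the amino acid response element (TGATGCAA) were among the motifs searched. The counter's 5 summary entries were kept out of library sizes and tests. edgeR 4.0.16 (R 4.3.3) fitted 4 group means to the 12 libraries (8 residual degrees of freedom, TMM factors, at least 10 counts by filterByExpr, robust quasi-likelihood, Benjamini-Hochberg adjustment over 13643 genes, calls at 0.05). A gene went opposite ways if its difference and both responses were called with opposite signs. Named genes are the 10 largest differences per direction and the 10 largest opposite changes per direction at 10 CPM or more, 16 genes fixed from the drug and the title, and list members with the largest differences; genes opposite in every fit, the largest with 10 CPM in each line and those that moved more in SUIT2 were added after values were seen. A few genes that this rule names are not reported here. Members and lists were chosen with earlier results of these data known. DESeq2 1.42.0, limma 3.58.1 and other scalings, filters and left-out libraries were alternatives. Replicates of a group differed by more than counting error.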

Additional observations from a re-analysis of the deposited data

Results flagged for a closer look

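The difference of responses was tested itself, and 8466 genes passed, 3963 with a higher and 4503 with a lower response in Panc327, of which 150 rose in Panc327 and fell in SUIT2 and 252 did the reverse. The following genes had opposite calls in the 2 lines and a test of the difference past the threshold. The log2 differences, Panc327 minus SUIT2, were 1.174 for BPHL, 0.9709 for FBXO17, 2.1 for ITGB6, 1.768 for MEGF6, 1.148 for PLAGL1 and 2.345 for TLCD2. Those of COL4A2 (2.966), FN1 (2.396), SNCG (5.279) and WNK4 (2.712) are fitted values that rest on a group with few or no counts and give no fold. In the other direction they were -1.29 for ATG2A, -2.052 for FAM46B, -1.602 for GPRC5B, -1.392 for MAP6D1, -1.146 for NFATC1, -1.77 for OSR2, -1.458 for SERTAD1, -1.248 for SPIN3 and -1.48 for TLE4. The sizes for FAM46B and ITGB6 also rest on few counts in SUIT2. FAM46B had 20, 13 and 21 counts there with THZ1 and 10, 9 and 6 with DMSO. ITGB6 had 16, 14 and 15 with THZ1 and 24, 34 and 25 with DMSO. Of these 19 genes, MEGF6, TLCD2, ATG2A, OSR2 and SERTAD1 kept both calls in all 19 other fits. The other 14 lost a call in at least 1 of them: BPHL, GPRC5B and SNCG in 6 each, MAP6D1 in 5, FN1 in 4, COL4A2, FBXO17, NFATC1 and WNK4 in 3 each, FAM46B and ITGB6 in 2 each, and PLAGL1, SPIN3 and TLE4 in 1 each. DESeq2 gave no SUIT2 adjusted p for FAM46B, and that fit is not among its 2. In the count of genes opposite in every fit, a missing adjusted p was taken as a lost call. Without SUIT2 DMSO library 3 the SUIT2 adjusted p from edgeR was 0.751 for COL4A2 and 0.546 for FN1. Outside the gene counts, reads aligned to several places made up 52.8% of the records in Panc327 with THZ1, above the 13.6% in Panc327 with DMSO.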

How the results depend on the processing

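The count of genes with a different response stayed between 8044 and 8632 over the other scalings, tools, filters by count, the 18-library fit and the replicate block, at 8195 to 8362 with 1 library left out, and at 7671 when the filter was a mean of 10 CPM. The direction of the calls moved with the scaling: genes with a higher response in Panc327 were 2310 with library size alone, and 2439 when a 1.5-fold difference was asked for. Genes higher in Panc327 and lower in SUIT2 were 75 with library size alone and 101 to 181 with 1 library left out. Genes lower in Panc327 and higher in SUIT2 were 108 with DESeq2 and 145 to 236 with 1 library left out, with 162 without SUIT2 THZ1 library 2, 165 without SUIT2 DMSO library 2 and 145 without SUIT2 DMSO library 3. Genes opposite in every fit were 27 and 51. With library size alone the differences of CFLAR (-0.0172), HSPA5 (-0.0871), HSPD1 (-0.0332), NCAPD2 (-0.0406) and NUF2 (-0.0815) changed sign with no call. The cause of these shifts was not tested. With the replicate number as a replicate block, 8425 genes were called, 147 and 237 of them opposite. The correlation of same-numbered libraries' deviations ran from -0.1826 to 0.1134. These deviations are in part counting error, and the labels do not say what the numbers mark. Whether the numbers pair the libraries is therefore not known. Depth limits genes with few counts in 1 line, as for SNCG and COL4A2. The alternatives at 10 CPM in each line and in every fit were chosen after seeing the data.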
